A study of Mus musculus with 17 samples.

Results

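Untreated mouse embryonic stem cells (ESC) were set against wild-type mouse embryonic fibroblasts (MEF), which carry no transgene. The comparison used 3 of the 17 arrays of the series: ESC, Ctrl_MEF_0 (wild-type MEF without treatment) and Ctrl_MEF_24 (wild-type MEF after 24 h of treatment). The labels do not name the inducing compound, and they give no strain, passage, feeder layer, medium or number of animals for these cells. One source field of the treated fibroblasts gives 14 where the title and the time give 24. The other 14 arrays hold fibroblasts, bone marrow cells (BMC) and neural stem cells (NSC) with tetracycline-controlled Oct4 (written TO) at 0, 6, 12 and 24 h, and wild-type NSC at 0 and 24 h. A gene entered when a probe had a detection p under 0.01 on any of the 3 arrays, which 8928 of the 16593 genes on the array did. It was called when ESC differed by at least 2-fold, in the same direction, from each of the fibroblast arrays.

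Embryonic stem cells come from the inner cells of the blastocyst and can form every tissue of the embryo. Their identity rests on a network of transcription factors around Pou5f1 (Oct4), Sox2 and Nanog, and in the mouse it is held by the cytokine LIF. Fibroblasts are mesenchymal cells that build and crosslink the collagen matrix, anchor to it through integrins and contract with smooth-muscle-type actin fibres. Mouse embryonic fibroblasts are the usual starting cell for reprogramming with Oct4, the question the series addresses.

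Each condition had 1 array, so no p-value is given, and the only measure of spread is the gap between the fibroblast arrays, which holds array, culture and treatment together. That gap was at most 1.25 on the log2 scale, with a median of 0.11 and a 95th percentile of 0.46 over the 8928 genes, and 8 genes (0.0896%) lay at least 2-fold apart. It says nothing about how much separate ESC cultures would vary. Detected probes numbered 10928 on ESC, 10792 on Ctrl_MEF_0 and 11082 on Ctrl_MEF_24, of 25697, with median raw intensities of 122, 139 and 132. All 10 pluripotent markers were detected on ESC and none on the fibroblasts. Of 12 fibroblast markers, 11 and 12 were detected on the fibroblast arrays, with a summed signal of 56800 and 59700 against 1430 on ESC. Of them 4 were detected on ESC (Thy1, Pdgfra, Twist1 and Vim), while Col1a1, Col1a2, Col3a1, Dcn, Lum, Pdgfrb and Prrx1 were below detection there. The labels of both cell types therefore match their defining markers.

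ESC were higher for 1766 genes (19.8% of those tested) and lower for 1779 (19.9%), 3545 genes in all (39.7%). The median difference was 1.71 on the log2 scale among the higher genes and fell by 1.90 among the lower ones, where the median of all genes was 0.00. At 4-fold, 574 genes (6.43%) were higher and 791 (8.86%) lower. At 64-fold, 18 (0.202%) were higher and 36 (0.403%) lower. No gene was called in opposite directions against the 2 fibroblast arrays, which lay at most 1.25 apart, too close for such a call. Against 1 of them only, 296 were higher and 275 lower. The threshold cut through a continuum: Psmd2 at 1.0011 lay just inside on the log2 scale and Mapk14 at 0.9998 just outside. In bulk RNA, fewer cells of a type and less RNA per cell cannot be told apart.

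**Figure D1:**
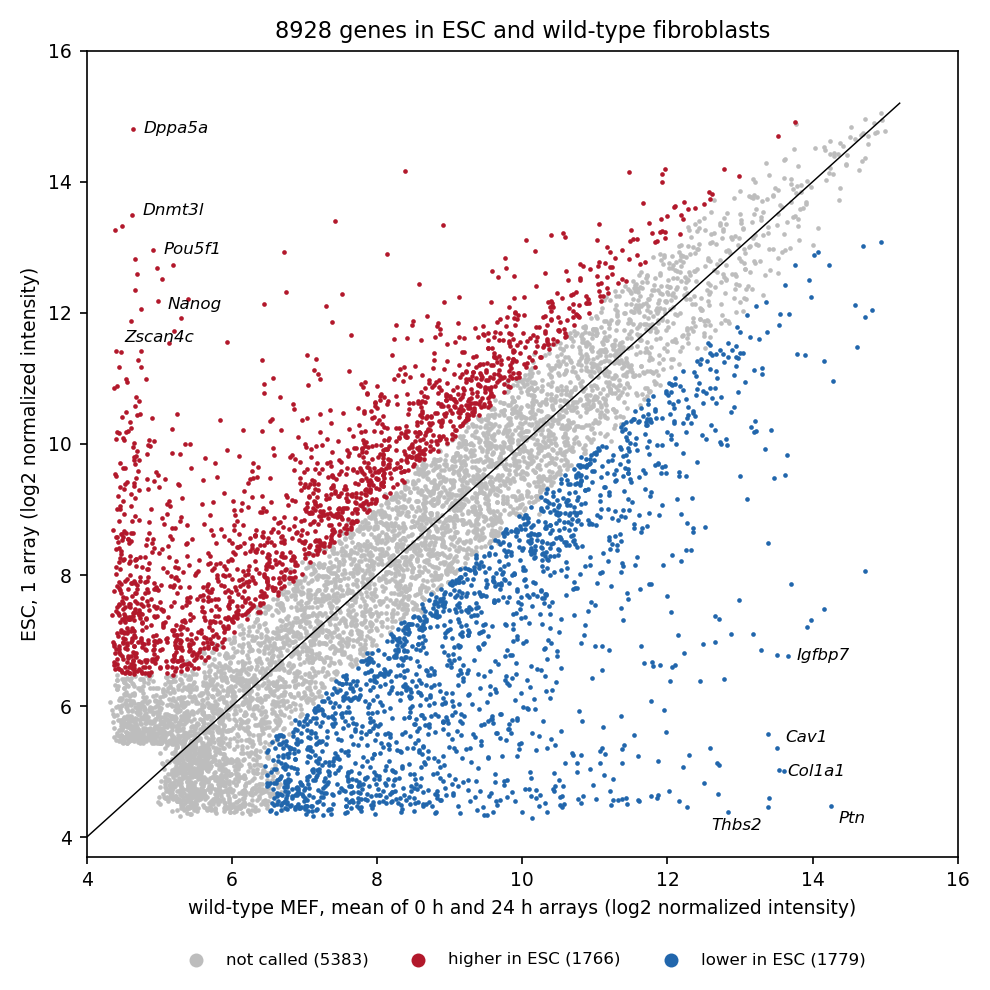
Level of each of the 8928 genes in ESC (y axis, 1 array) against the mean of the untreated and treated wild-type MEF arrays (x axis), both as log2 normalized intensity; the black line marks equal levels. The 1766 genes higher in ESC are red, the 1779 lower ones blue and the other 5383 grey, and the band of points at the left and bottom edges holds genes below detection in one of the cell types.

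Sequences before the start site are shown for 6 genes of the groups described further on, as 250 bases read 5′ to 3′ from the RefSeq promoter table of GRCm38.p6. For pluripotency, Nanog (chr6:122707315-122707564, plus strand) and Zfp42 (chr8:43307010-43307259, minus strand) were chosen because their windows hold the letters bound by Oct4 in textbook examples. Capitals mark the joined Oct4 and Sox2 motif in Nanog (TTTGCAT, then N, then ACAATG), 151 bases before the start site, and the octamer ATGCAAAT, read on the opposite strand, in Zfp42, 186 bases before it. Both strands were searched. The joined motif occurred in 2 of 32851 windows, both of Nanog, which has 2 annotated starts, and the octamer in 1.60% of windows. Over whole windows of 300 bases, 1 of 15 pluripotency factors with a window held the octamer. By the same measure it occurred in 1.4% of genes higher in ESC, 2.12% of lower ones and 1.66% of all tested genes. Col3a1 and Tnc were among the lower genes that held it. The joined motif begins with letters that an octamer on the opposite strand would end with, but the Nanog match is not an octamer match.
Nanog: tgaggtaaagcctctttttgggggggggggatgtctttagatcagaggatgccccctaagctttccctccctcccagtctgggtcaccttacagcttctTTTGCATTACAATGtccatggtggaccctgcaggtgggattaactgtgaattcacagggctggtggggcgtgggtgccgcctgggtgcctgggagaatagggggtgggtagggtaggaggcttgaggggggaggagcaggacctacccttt
Zfp42: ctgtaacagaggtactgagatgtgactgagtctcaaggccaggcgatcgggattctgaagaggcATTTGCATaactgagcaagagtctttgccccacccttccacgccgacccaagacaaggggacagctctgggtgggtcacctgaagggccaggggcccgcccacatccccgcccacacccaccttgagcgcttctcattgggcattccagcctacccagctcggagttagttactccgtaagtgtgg

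Of genes known from germ cells, Dazl (chr17:50293621-50293870, minus strand) and Tex19.1 (chr11:121145893-121146142, plus strand), the latter counted below among the pluripotency-associated genes, are shown with every CG in capitals, since such promoters are known to be silenced by CpG methylation in somatic cells. They hold 20 and 15 CG, with CpG ratios (observed over that from base content) of 0.71 and 0.64, where the median window of tested genes holds 15 CG at a ratio of 0.72 and the median of all windows 6 at 0.37. Methylation was not measured here.
Dazl: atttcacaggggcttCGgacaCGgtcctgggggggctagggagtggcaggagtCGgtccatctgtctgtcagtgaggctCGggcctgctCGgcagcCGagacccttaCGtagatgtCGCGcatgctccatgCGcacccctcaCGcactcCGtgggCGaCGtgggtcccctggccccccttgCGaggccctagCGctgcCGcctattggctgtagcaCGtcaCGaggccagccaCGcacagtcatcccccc
Tex19.1: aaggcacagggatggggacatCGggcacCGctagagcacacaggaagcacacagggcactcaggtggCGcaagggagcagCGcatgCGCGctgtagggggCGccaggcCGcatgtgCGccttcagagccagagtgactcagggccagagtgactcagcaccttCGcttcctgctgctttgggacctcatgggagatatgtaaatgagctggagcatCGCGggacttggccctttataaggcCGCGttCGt

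For the contractile genes of fibroblasts, Srf (chr17:46556163-46556412, minus strand) and Vcl (chr14:20929148-20929397, plus strand) are shown with the CArG box, the site bound by serum response factor, in capitals. Srf holds 2 such matches, 82 and 62 bases before the start site, and Vcl 1, 227 bases before it. A CArG box occurred in 1.47% of all windows. The Srf window also holds an octamer, left in lower case. Srf and Vcl were chosen after their values were seen. A match of letters is a description and does not show binding.
Srf: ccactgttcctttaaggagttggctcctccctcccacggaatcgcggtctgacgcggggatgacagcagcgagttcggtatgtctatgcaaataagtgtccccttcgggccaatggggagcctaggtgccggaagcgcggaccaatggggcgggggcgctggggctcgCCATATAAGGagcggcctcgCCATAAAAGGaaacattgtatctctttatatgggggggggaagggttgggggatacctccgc
Vcl: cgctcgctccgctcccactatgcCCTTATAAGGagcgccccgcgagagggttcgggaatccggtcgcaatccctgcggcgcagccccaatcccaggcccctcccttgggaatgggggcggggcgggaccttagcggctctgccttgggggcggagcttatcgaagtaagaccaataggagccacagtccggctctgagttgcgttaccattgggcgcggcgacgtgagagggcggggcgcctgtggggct

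Values in the following paragraphs are log2 normalized intensities in the order ESC, untreated MEF, treated MEF, and folds compare ESC with the mean of the fibroblast arrays. Where the dimmer side was below detection, it was set to the lowest detected signal of its array or its own signal if higher, and the fold is a lower bound, written "at least". Among the genes named below, the calls of Lifr, Pim1, Fgf4, Mmp9, Itgb4, Zbtb33, Cbx8, Smarcc2, Smarcd3, Adgre1, Sox17, Emcn and Xist were lost without background correction, and those of Lifr, Pim1, Cbx8 and Emcn also with an offset of 50. At least 1 further probe of Blm, Bmp1, Cd44, Dab2, Egfr, Ezh2, Fzd10, Nfix, Nhp2, Pim1, Rbm47, Sox17, Srf, Stat3, Tgfbr2, Tnc, Uhrf1 and Zbtb33 was not called, and none of these went the other way. Cnn2 was named after its values were seen.

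The largest difference of all was that of Dppa5a, an RNA-binding protein of early embryos and stem cells, with 14.81 on ESC against 4.65 and 4.64, at least 667-fold higher. Its second probe was called the same way, although Dppa5a has near-identical pseudogenes that such a probe may share. Dnmt3l, the catalytically inactive partner of the de novo DNA methyltransferases, gave 13.50, 4.55 and 4.69 and was at least 269-fold higher. Dppa4, a nuclear protein of pluripotent cells, gave 13.26, 4.45 and 4.34, at least 228-fold. Ooep, an oocyte and embryo factor, gave 12.68, 4.87 and 5.07, at least 152-fold. None of these was detected on either fibroblast array. The 15 leading genes also held Bex4 (at least 158-fold), Wfdc2 (at least 136-fold) and Mreg (at least 122-fold), which are not usually counted as pluripotency genes.

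Among 20 measured pluripotency transcription factors, 18 were higher, none was lower, and the median difference was 3.99. Pou5f1, the POU factor Oct4 itself, gave 12.96, 5.02 and 4.82, or raw intensities of 9130, 140 and 126, and was at least 186-fold higher. Its second probe gave 13.18, 4.43 and 4.44, so both probes agree. Esrrb, an orphan nuclear receptor that sustains self-renewal, gave 13.33, 4.38 and 4.59, at least 239-fold higher. Nanog, the homeobox factor whose window is printed above, gave 12.18, 4.61 and 5.35, at least 108-fold higher. Sall4, a zinc finger partner of Oct4, gave 12.06, 4.71 and 4.80, at least 99.5-fold. Gbx2, a homeobox target of LIF signalling, gave 11.41, 4.86 and 4.64, at least 63.4-fold. Sox2, the HMG-box partner of Oct4, gave 9.95, 4.70 and 4.58, at least 23-fold higher. Zfp42 (Rex1), the other gene with a printed window, gave 9.85, 5.40 and 5.16, at least 21.4-fold.

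Not all factors used for reprogramming were called. Klf4 gave 9.98 on ESC against 9.35 and 9.67, a ratio of 1.39, and was not called by its brightest probe. One of its 3 probes did pass, with 8.61, 7.08 and 6.97. The remaining probe gave 9.48, 8.19 and 8.51, so all 3 read higher on ESC. Myc was detected on none of the 3 arrays by either of its probes, so its level could not be compared. Thap11, a cofactor of the pluripotency network, gave 11.34, 10.87 and 10.90 and was not called. The dot plot of genes higher in ESC shows the brightest probe of Klf4, whose points for ESC and wild-type MEF lie together. Those of Pou5f1, Nanog and Esrrb are far apart.

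Of 25 measured pluripotency-associated genes, 24 were higher, with a median of 4.27. Fbxo15, an F-box protein used as a reprogramming reporter, gave 12.82, 4.53 and 4.80, at least 168-fold. Tex19.1, a mammal-specific protein that restrains retrotransposons, gave 12.59, 4.61 and 4.77, at least 143-fold. Utf1, a chromatin-associated factor of undifferentiated cells, gave 11.40, 4.42 and 4.52, at least 62.9-fold. Slc2a3, the neuronal-type glucose transporter, was detected in both cell types, with 13.40, 7.32 and 7.53, a 63.2-fold difference. Lin28a, which blocks maturation of let-7 microRNAs, gave 9.0, 4.91 and 4.85, at least 11.9-fold. The member not called was the metallothionein Mt1, with 14.35, 13.67 and 13.56.

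**Figure D2:**
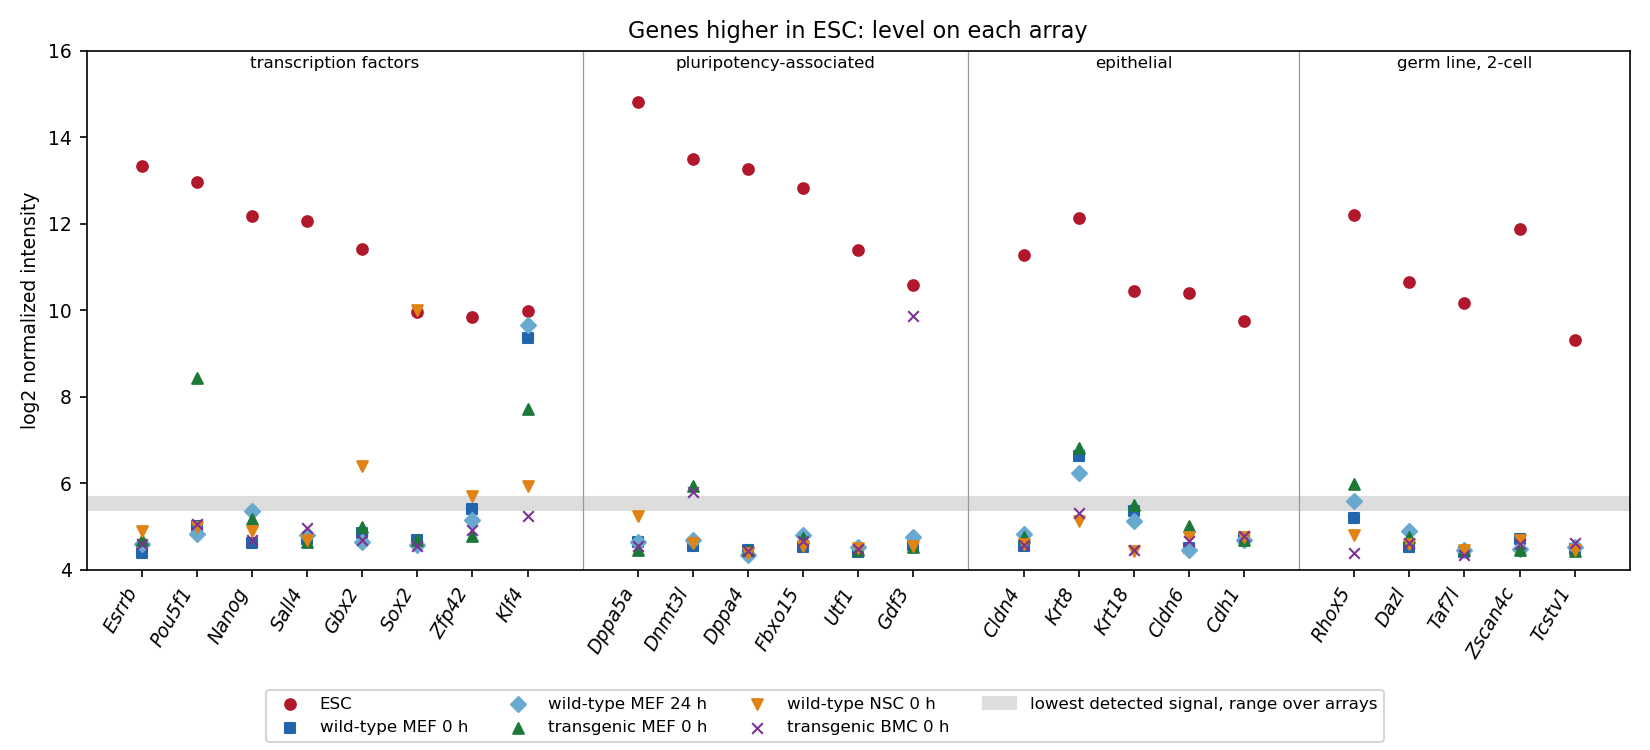
Log2 normalized intensity (y axis) of pluripotency, epithelial, germ line and 2-cell genes on 6 arrays: ESC, wild-type MEF at 0 and 24 h, and for reference transgenic MEF, wild-type NSC and transgenic BMC at 0 h; each point is 1 array, and the grey band is the range of the lowest detected signal. ESC is the highest point for each gene except Sox2, where wild-type NSC gave 10.01 against 9.95.

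Germ line genes were also higher in ESC: 12 of 17 measured, none lower, with a median of 1.97. Without background correction 7 were higher, with a median of 0.97. Rhox5, a reproductive homeobox gene, gave 12.21, 5.21 and 5.59, at least 102-fold, and was detected on the treated fibroblasts. Dazl, an RNA-binding protein of germ cells whose window is printed above, gave 10.65, 4.54 and 4.91, at least 37.4-fold. Rhox9 (10.19, 4.50 and 4.32, at least 27.1-fold) belongs to a cluster of close relatives that probes may share. Taf7l, a germ cell form of a TFIID subunit, gave 10.16, 4.41 and 4.47, at least 26.6-fold. Piwil2, a Piwi protein of the piRNA pathway, gave 9.84, 4.86 and 4.80, at least 21.3-fold. Ddx4 and Stra8, markers of later germ cells, were low on ESC at 5.59 and 6.40 and were not called.

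Genes known for their activity at the 2-cell stage were higher in 7 of 9 measured members, with a median of 3.40. Zscan4c, which protects telomeres in stem cells, gave 11.88, 4.72 and 4.49, at least 87.5-fold. Gm5662 gave 9.51, 4.37 and 4.44, at least 16.9-fold. Tcstv1, of a variable gene family active in 2-cell embryos, gave 9.31, 4.48 and 4.54, at least 14.8-fold. Zscan4 and Tcstv genes exist in near-identical copies that an array probe need not separate. Such genes are known to be active in a small fraction of cultured stem cells at a time, which a bulk array does not resolve.

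LIF signals through the receptors Lifr and Il6st to Jak kinases and Stat3. All 11 measured members of this pathway differed, 6 higher and 5 lower, with a median of 1.14. The receptor Lifr gave 6.85, 5.17 and 4.86, at least 2.69-fold higher in ESC. Its partner Il6st went the other way, with 5.86, 8.54 and 8.69, 6.72-fold lower. The kinase Jak1 gave 4.89, 7.86 and 8.19, at least 6.05-fold lower, and Stat3 itself gave 9.34, 11.03 and 11.26, 3.51-fold lower. The feedback inhibitors were higher: Socs3 gave 10.79, 8.76 and 8.45 (4.54-fold). Socs2 gave 11.56, 8.89 and 9.24 (5.61-fold), and the adaptor Gab1 gave 12.55, 9.68 and 9.65 (7.42-fold). Without the calls of Lifr and Pim1, which did not hold under either weaker background setting, the list stood at 4 higher and 5 lower.

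Fibroblast growth factors drive stem cells towards differentiation. Among 11 measured ligands, receptors and feedback genes, 4 were higher and 1 lower, with a median of -0.08. Fgf4, the main FGF of stem cells, gave 7.39, 4.42 and 4.47, at least 3.91-fold higher. Fgf17 gave 8.64, 4.73 and 4.54, at least 9.26-fold, and the feedback inhibitor Spry4 gave 8.61, 5.63 and 5.86, 7.30-fold. Fgf7, a ligand that mesenchyme sends to epithelium, was the lower member, with 4.38, 9.84 and 10.16, at least 23.7-fold. The receptor Fgfr1 gave 6.04, 6.85 and 6.82 and was not called.

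In the Nodal, activin and BMP pathway 5 of 22 measured members were higher, a share near that of all genes, and 10 were lower (median -0.93), with ligands and antagonists in both directions. Nodal gave 9.30, 4.80 and 4.63, at least 14.7-fold higher in ESC. Its antagonist Lefty2 gave 9.06, 4.43 and 4.47, at least 12.4-fold. Gdf3, a related ligand, gave 10.58, 4.58 and 4.75, at least 35.7-fold, and the coreceptor Tdgf1 gave 7.87, 4.65 and 4.60, at least 5.44-fold. The receptor Acvr2b gave 10.72, 6.88 and 6.43, 16.7-fold higher. Lower in ESC were Inhba, the activin A subunit, with 4.50, 11.46 and 11.43 (at least 64.7-fold), and its antagonist Fst with 6.43, 11.03 and 10.89 (23.2-fold). The BMP antagonist Grem1 gave 4.41, 9.53 and 9.24, at least 15.5-fold lower. Bmp4 gave 10.43, 10.42 and 10.26 and was not called.

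In the Wnt pathway, 4 of 20 measured members were higher, near the 19.8% of all genes, and 8 were lower, with a median of -0.60. The higher members numbered 2 without background correction. Porcn, the acyltransferase that Wnt secretion needs, gave 10.46, 7.22 and 7.20, 9.51-fold higher. The receptor Fzd10 gave 7.88, 4.79 and 4.54, at least 5.46-fold higher. Dkk3, a secreted Dickkopf relative, gave 5.61, 11.89 and 12.07, 82.9-fold lower. Wnt5a, a noncanonical ligand of mesenchyme, gave 4.59, 10.70 and 10.83, at least 40.3-fold lower. The repressor Tcf7l1 (12.22, 11.54 and 11.51) and Ctnnb1, beta-catenin (11.74, 12.65 and 12.67), were not called.

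Receptor tyrosine kinases were lower in 10 of 17 measured members and higher in 1, with a median of -1.53. Axl, the Gas6 receptor, gave 7.11, 13.16 and 13.19, 67.1-fold lower, and its ligand Gas6 gave 6.92, 11.71 and 11.58, 26.3-fold lower. Pdgfra gave 6.55, 10.21 and 10.30, 13-fold lower, yet was detected on ESC. Egfr gave 6.12, 10.03 and 10.31, 16.6-fold lower. Epha2, an ephrin receptor, was the higher member, with 8.35, 6.40 and 6.44 (3.81-fold).

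In the insulin-like growth factor system, 9 of 13 measured members were lower and 2 higher, with a median of -2.50. The binding proteins differed in direction. Igfbp5 gave 4.82, 12.50 and 12.51 (at least 135-fold lower), and Igfbp7 gave 6.76, 13.56 and 13.77 (119-fold lower). Igfbp2 gave 10.99, 9.19 and 9.35, 3.31-fold higher. The ligand Igf2 gave 11.94, 14.68 and 14.77, 6.88-fold lower, while Igf2bp1, which binds its mRNA, gave 11.10, 9.63 and 9.37, 3.02-fold higher.

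Stem cells grow as an epithelium and fibroblasts as mesenchyme. Of 18 measured epithelial junction and keratin genes, 12 were higher and none lower, with a median of 1.47. The higher members numbered 8 without background correction (median 0.65) and also 8 with an offset of 50 (median 0.99). Cldn4, a tight-junction claudin, gave 11.28, 4.56 and 4.84, at least 57.8-fold higher. Cldn6 gave 10.41, 4.50 and 4.47, at least 31.6-fold. Cdh1, E-cadherin, gave 9.76, 4.73 and 4.70, at least 20.1-fold higher, and was below detection on both fibroblast arrays. Krt8 gave 12.13, 6.64 and 6.24, 51.6-fold, and its keratin partner Krt18 gave 10.45, 5.36 and 5.13, at least 32.5-fold. St14, a membrane serine protease of epithelia, gave 8.64, 4.79 and 4.91, at least 9.28-fold. Esrp1, an epithelial splicing regulator, gave 7.80, 4.35 and 4.54, at least 5.18-fold higher. Pkp2, a desmosomal plaque protein, gave 9.55, 9.42 and 9.33 and was not called.

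Mesenchymal transcription factors were the counterpart, with 21 of 27 measured members lower, none higher and a median of -1.72. Without background correction 15 were lower, with a median of -1.14. Twist2, a basic helix-loop-helix factor of dermal mesenchyme, gave 4.60, 11.52 and 11.35, at least 64.2-fold lower. Hic1, a transcriptional repressor, gave 4.90, 10.30 and 9.95, at least 25.9-fold. Prrx1, a limb-bud homeobox factor, gave 4.74, 10 and 10.18, at least 25.4-fold. Nr2f1 gave 4.61, 9.89 and 9.68, at least 20.5-fold. Zeb2, a repressor of Cdh1, gave 5.56, 9.11 and 9.19, 12.1-fold lower. Nfix, a nuclear factor I protein among the 15 leading lower genes, gave 5.36, 12.62 and 12.56, at least 143-fold.

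Hox genes record position along the body axis. Of the 39 in the list, 19 were measured, 14 were lower and none was higher, with a median of -2.40. The lower members numbered 10 without background correction, with a median of -1.26. Hoxc6 gave 4.70, 12.12 and 11.91, at least 96.3-fold lower. Hoxc9 gave 4.62, 10.25 and 9.99, at least 25.8-fold. Hoxa5 gave 5.79, 10.03 and 9.69, 16.8-fold lower, with a signal above detection on ESC. Hoxb7 gave 4.85, 9.17 and 9.20, at least 13.5-fold, and Hoxa7 gave 4.80, 9.15 and 8.91, at least 12.1-fold.

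Among the 39 lists, that of matrix glycoproteins and proteoglycans had the most lower members by count, 28 of 35 measured. By share, TGF-beta and serum response targets led with 19 of 20. Collagen genes were lower in 11 of 17 measured members, with a median of -2.75. Col1a1, the main chain of type I collagen, gave 5.03, 13.35 and 13.72 (raw intensities 123, 12400 and 15200), at least 276-fold lower. Col6a1 gave 4.60, 13.32 and 13.47, at least 251-fold. Col1a2 gave 4.67, 12.70 and 12.70, at least 154-fold. Col5a1, which starts fibril assembly, was detected on ESC, with 7.21, 13.83 and 14.00, and was 105-fold lower. Col18a1, a basement membrane collagen, gave 11.34, 10.87 and 10.78 and was not called.

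Collagen processing and crosslinking genes were lower in 13 of 21 measured members, with a median of -1.87. Lox, which crosslinks collagen and elastin, gave 5.02, 13.40 and 13.82, at least 290-fold lower. Loxl1 gave 7.86, 13.74 and 13.66, 57.1-fold. Bmp1, the procollagen C-proteinase, gave 7.64, 11.61 and 11.32, 14.1-fold. The lysyl hydroxylase Plod2 gave 9.29, 9.19 and 9.64, and the chaperone-complex member Crtap 10.81, 11.78 and 11.73; neither was called.

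Of 35 measured matrix glycoproteins and proteoglycans, 28 were lower and 2 higher, with a median of -2.92. Fbln2 (5.58, 13.35 and 13.43) was 225-fold lower, with a signal just above detection on ESC. Thbs2, an antiangiogenic thrombospondin, gave 4.39, 12.84 and 12.84, at least 170-fold. Tnc, tenascin C, gave 5.10, 12.68 and 12.75, at least 156-fold. Dcn, a collagen-binding proteoglycan, gave 4.46, 12.32 and 12.22, at least 115-fold. The higher members were Lama1, the laminin chain of early basement membranes (10.46, 4.68 and 4.78, at least 32.8-fold), and Nid2, a laminin-binding nidogen (11.06, 9.32 and 9.55, 3.08-fold). Lamc1, the chain that pairs with Lama1, gave 11.21, 10.35 and 10.59 and was not called.

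Matrix proteases and inhibitors were lower in 14 of 21 measured members and higher in 1, with a median of -2.26. The inhibitor Serpinf1 gave 7.48, 14.15 and 14.15, 102-fold lower. Timp2 gave 6.85, 13.26 and 13.32, 86.7-fold, and the gelatinase Mmp2, which Timp2 helps to activate, gave 7.62, 13.01 and 12.95, 41.0-fold. Ctsk, a collagen-degrading cathepsin, gave 4.57, 11.60 and 11.59, at least 71.8-fold lower. The higher member was Mmp9, with 6.98, 5.19 and 5.02 (at least 2.93-fold).

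Other leading lower genes were secreted or matrix-bound too. Ptn, the growth factor pleiotrophin, had the largest difference in this direction, with 4.48, 14.29 and 14.20, at least 451-fold lower. Mgp, an inhibitor of calcification, gave 4.46, 13.44 and 13.33, at least 249-fold. The chemokine Cxcl12 gave 5.13, 12.74 and 12.63, at least 153-fold lower.

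**Figure D3:**
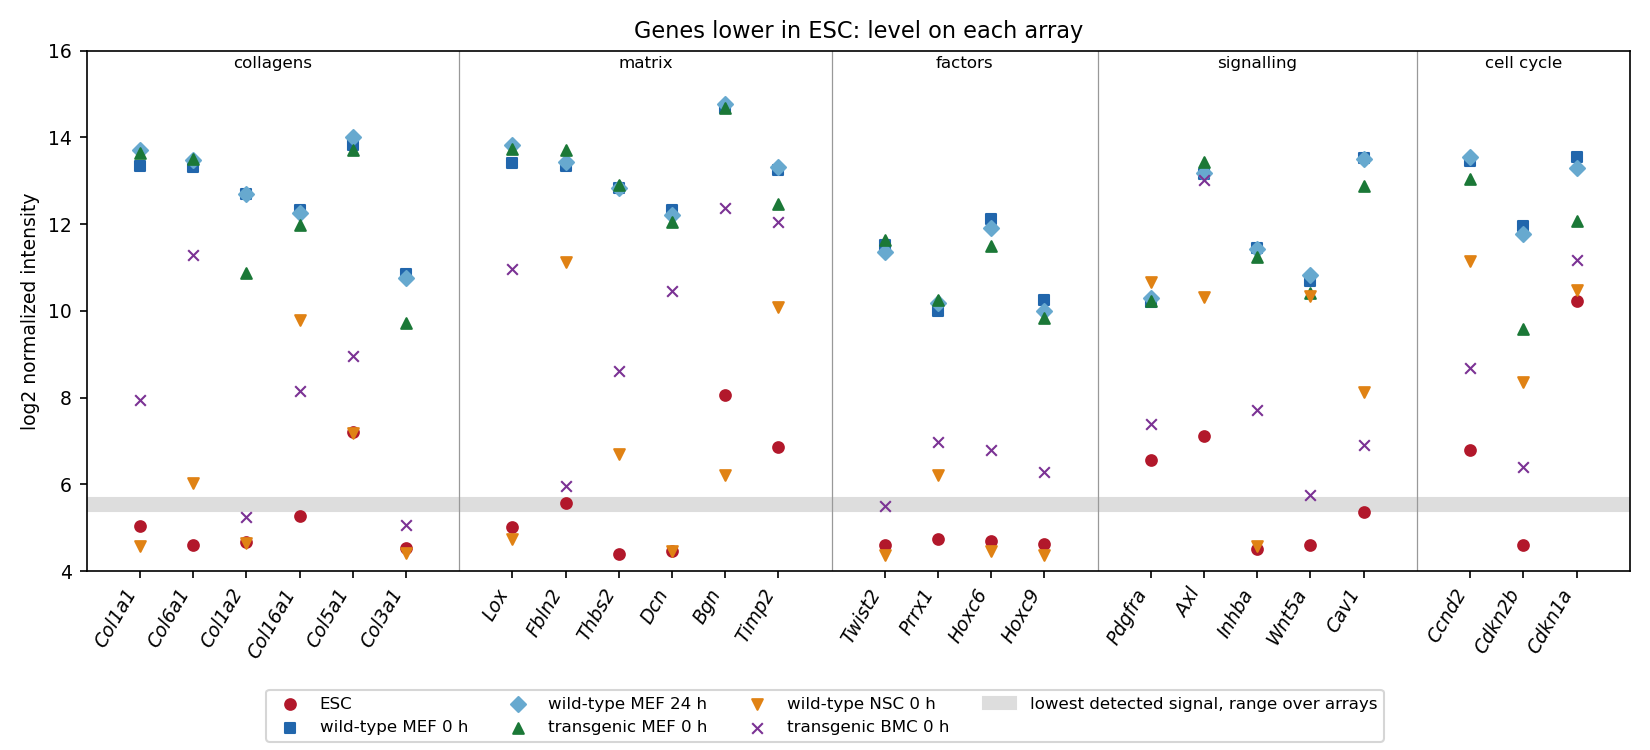
Log2 normalized intensity (y axis) of collagen, matrix, transcription factor, signalling and cell cycle genes lower in ESC, on the same 6 arrays as the plot of higher genes; each point is 1 array and the grey band is the range of the lowest detected signal. The 3 fibroblast arrays, transgenic MEF included, lie above ESC for every gene shown, and Col1a1 stands at 5.03 on ESC against 13.35 and 13.72.

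Among 27 measured integrins and focal adhesion genes, 19 were lower and 4 higher, with a median of -2.28. Cav1, the coat protein of caveolae, gave 5.36, 13.52 and 13.50, at least 270-fold lower. Itga11, a collagen-binding integrin chain, gave 4.56, 11.61 and 11.60, at least 72.3-fold. Cavin3 gave 5.94, 12.06 and 11.84, 64.2-fold, and the hyaluronan receptor Cd44 gave 4.95, 10.96 and 11.29, at least 51.8-fold lower. The higher members were laminin-binding chains and a leukocyte chain. Itga3 gave 9.80, 7.06 and 7.13 (6.51-fold), Itga6 gave 7.87, 5.66 and 5.68 (4.59-fold), and Itgb4 gave 8.20, 6.68 and 6.63 (2.92-fold). Itgb7 gave 7.75, 4.38 and 4.38, at least 5.02-fold.

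Targets of TGF-beta and serum response factor were lower in 19 of 20 measured members, with a median of -2.88, the lowest of the 39 lists after that of the matrix glycoproteins. Actg2, a smooth muscle actin, gave 7.10, 12.93 and 12.82, 54.8-fold lower. Ltbp3, which anchors latent TGF-beta, gave 5.26, 10.83 and 10.79, at least 41.7-fold, and the ligand Tgfb3 gave 4.63, 10.54 and 10.55, at least 34.6-fold. The receptor Tgfbr2 gave 7.09, 12.15 and 12.13, 33.2-fold lower, while Tgfbr1 gave 9.89, 10.57 and 10.81 and was not called. Of the genes with a printed CArG box, Vcl (vinculin) gave 9.99, 12.78 and 12.87, 7.14-fold lower, and Srf gave 8.39, 10.21 and 10.15, 3.46-fold. Over whole windows of 300 bases, a CArG box lay in 3 of the 16 members with a window (Cnn2, Srf and Vcl). Among tested genes with a window the share was 1.64%, and among those lower in ESC 2.54%. The list was drawn up to hold targets of serum response factor, so the count is a description.

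AP-1 and immediate early genes were lower in 8 of 17 measured members and higher in 1, with a median of -1.01. Egr1 gave 8.49, 13.47 and 13.30, 29.8-fold lower. Fos gave 5.59, 9.84 and 9.45, 16.6-fold, and Jun gave 5.08, 8.30 and 8.38, at least 7.54-fold lower. Klf9 was the higher member, with 12.15, 11.02 and 10.82 (2.34-fold).

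**Figure D4:**
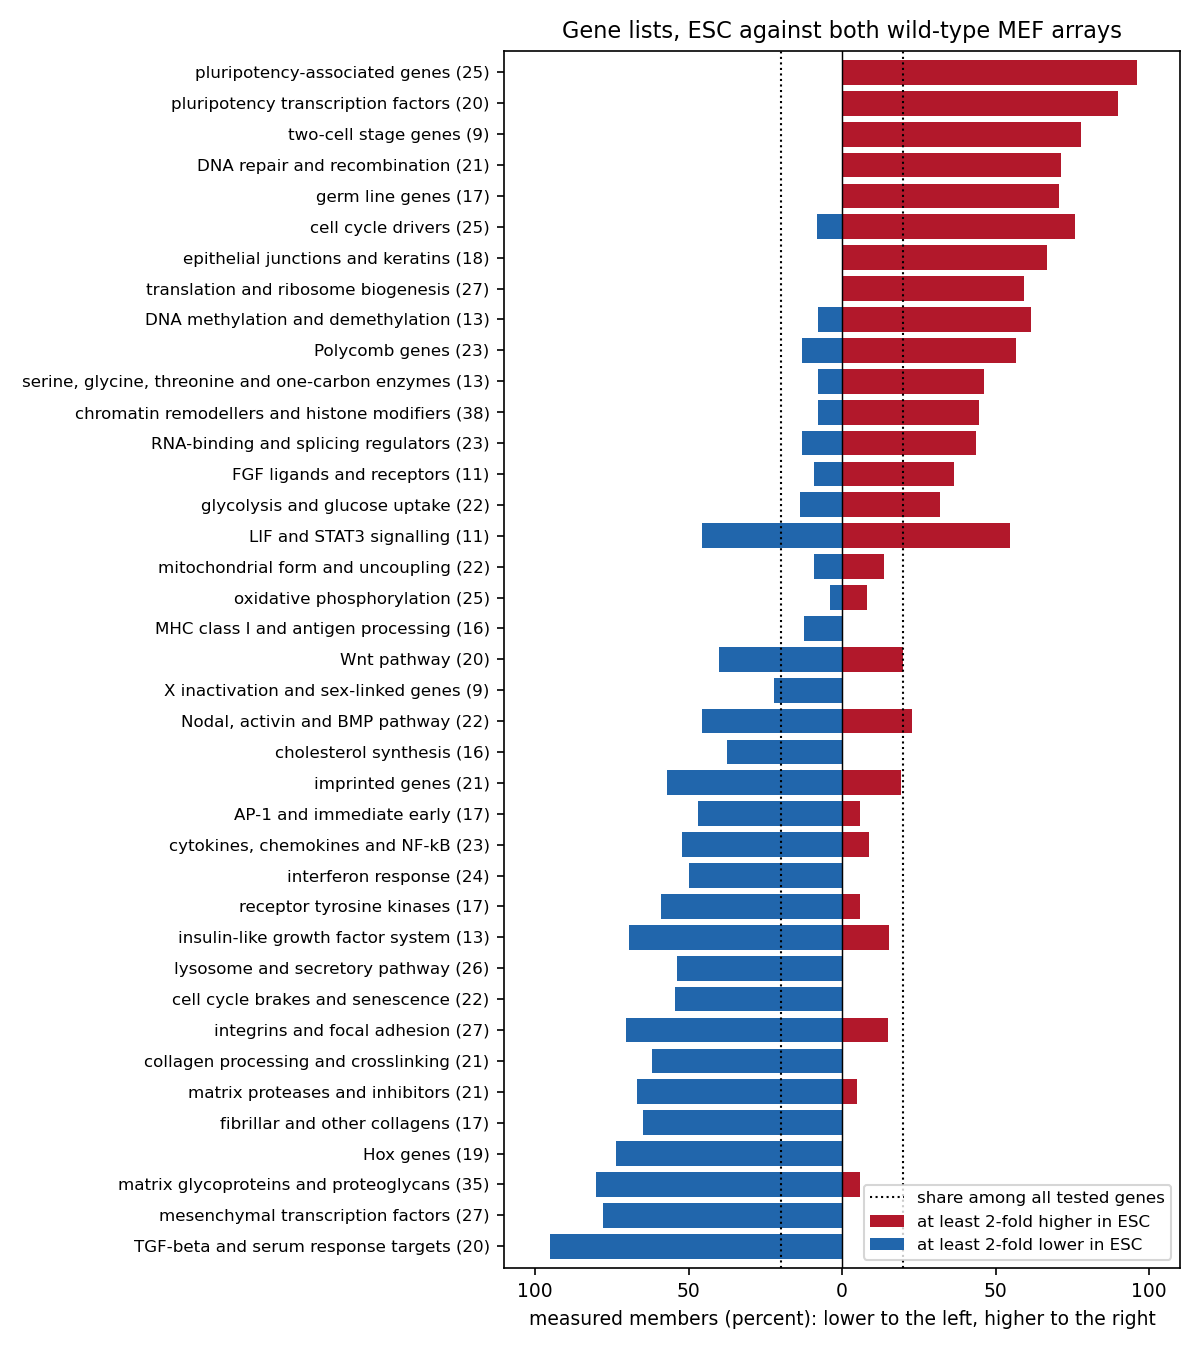
Share of measured members (x axis, percent) of each of the 39 gene lists at least 2-fold higher (red, to the right) or lower (blue, to the left) in ESC than on both wild-type MEF arrays; measured members are in parentheses and dotted lines mark the shares over all tested genes, 19.8% and 19.9%. Pluripotency lists stand at the top, and TGF-beta targets, mesenchymal factors and matrix lists at the bottom.

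DNA methylation genes were higher in 8 of 13 measured members and lower in 1, with a median of 1.51. Dnmt3b, a de novo methyltransferase, gave 12.92, 7.21 and 6.22, 73.8-fold higher. Uhrf1, which guides maintenance methylation, gave 12.78, 10.97 and 11.15, 3.29-fold. The thymine glycosylase Tdg gave 8.57, 7.06 and 6.61, 3.33-fold, and the related Mbd4 gave 7.60, 5.25 and 5.15, at least 4.50-fold. Zbtb33 (Kaiso), a reader of methylated DNA, was 2.60-fold lower with 7.26, 8.49 and 8.78.

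Polycomb genes, which keep developmental genes silent, were higher in 13 of 23 measured members and lower in 3, with a median of 1.23. Epop, a Polycomb-linked elongin factor, gave 12.32, 6.74 and 6.76, 47.7-fold higher. Mtf2, a PRC2 accessory subunit, gave 10.92, 6.19 and 6.70, 22.3-fold. The methyltransferase Ezh2 gave 11.62, 8.55 and 8.28, 9.26-fold, and the core subunit Suz12 gave 13.23, 10.47 and 10.66, 6.34-fold. The chromobox proteins divided: Cbx7 gave 10.02, 4.89 and 4.41, at least 24.1-fold higher, while Cbx8 gave 5.17, 6.46 and 6.69, at least 2.21-fold lower. Phc2 gave 9.15, 10.64 and 10.60, 2.77-fold lower.

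Other chromatin remodellers and histone modifiers were higher in 17 of 38 measured members and lower in 3, with a median of 0.91. Sirt1, an NAD-dependent deacetylase, gave 10.99, 7.10 and 7.33, 13.7-fold higher. Wdr5, a subunit of H3K4 methyltransferases, gave 10.99, 8.37 and 8.09, 6.75-fold, and Parp1 gave 12.56, 10.03 and 9.76, 6.37-fold. The lower members were subunits of the BAF remodeller. Smarca2 (Brm) gave 7.45, 10.84 and 10.98, 11-fold lower. Smarcd3 gave 4.95, 7.13 and 7.20, at least 3.34-fold, and Smarcc2 gave 5.67, 7.63 and 7.43, 3.63-fold.

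Cell cycle drivers were higher in 19 of 25 measured members and lower in 2, with a median of 2.0. Mcm3, of the replicative helicase, gave 10.36, 6.38 and 6.67, 14.2-fold higher. Mcm7 gave 10.21, 6.25 and 6.59, 13.8-fold, and Mcm2 gave 11.87, 8.27 and 8.73, 10.3-fold. Ccne1, the G1/S cyclin, gave 9.98, 7.05 and 7.45, 6.63-fold higher. The D-type cyclins that answer to mitogens were the lower members: Ccnd2 gave 6.79, 13.46 and 13.56 (106-fold), and Ccnd1 gave 11.07, 13.31 and 13.29 (4.68-fold). E2f1 gave 10.18, 10.06 and 9.90 and was not called.

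Cell cycle brakes and senescence genes were lower in 12 of 22 measured members and higher in none, with a median of -1.37. Cdkn2b (p15), an inhibitor of the D-type cyclin kinases, gave 4.59, 11.96 and 11.77, at least 86.4-fold lower. The p53 target Cdkn1a (p21) gave 10.22, 13.56 and 13.30, 9.26-fold. The death receptor Fas gave 5.10, 8.93 and 8.92, at least 11.3-fold lower. Trp53inp1 (11.10, 10.92 and 11.07) and Mdm2 (11.91, 12.52 and 12.38), also p53 targets, were not called. DNA repair genes were higher in 15 of 21 measured members, with none lower and a median of 1.76. Rpa2, of the single-strand binding complex, gave 10.61, 6.53 and 7.15, 13.7-fold. Blm, a RecQ helicase, gave 11.36, 8.27 and 8.16, 8.85-fold, and Brca2 gave 9.13, 6.25 and 5.79, 8.64-fold higher.

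Metabolic lists differed in their share of called genes. Oxidative phosphorylation genes were higher in 2 of 25 measured members and lower in 1, shares below those of all genes, with a median of 0.31. Cox7a1, a tissue-specific cytochrome oxidase subunit, gave 9.78, 5.72 and 5.53, 17.9-fold higher. In glycolysis and glucose uptake 7 of 22 were higher and 3 lower, with a median of 0.29. The lower share was below the 19.9% of all genes. The largest difference of the list was that of the transporter Slc2a3, 63.2-fold higher as given above. Hk2, hexokinase 2, gave 12.68, 9.75 and 9.81, 7.46-fold higher, and Pdk1, which keeps pyruvate out of mitochondria, gave 9.96, 7.09 and 7.23, 7.0-fold. Eno2 gave 5.43, 8.74 and 8.30, 8.50-fold lower, and Ldha gave 12.11, 13.24 and 13.21, 2.17-fold lower. Gapdh gave 14.40, 14.49 and 14.46, and Pkm gave 13.32, 13.39 and 13.39. Among mitochondrial form and uncoupling genes, 3 of 22 were higher and 2 lower (median 0.13). Both shares were below the 19.8% and 19.9% of all genes. The called members included the mitochondrial DNA factor Tfam with 10.39, 8.70 and 8.65 (3.29-fold higher). The fusion protein Mfn2 gave 9.55, 11.18 and 11.35 (3.29-fold lower).

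Enzymes of serine, glycine, threonine and folate metabolism were higher in 6 of 13 measured members and lower in 1, with a median of 0.41. Gldc, which cleaves glycine, gave 11.55, 5.91 and 5.97, 49.0-fold higher. Shmt1 gave 9.38, 5.36 and 5.18, at least 15.5-fold. Cth, of the route from methionine to cysteine, gave 9.17, 5.38 and 5.25, at least 13.4-fold. Dld, a subunit that the glycine cleavage system shares with pyruvate dehydrogenase, gave 5.70, 7.70 and 7.89, 4.26-fold lower. Psat1 gave 11.92, 12.18 and 12.53 and was not called. Cholesterol synthesis genes were lower in 6 of 16 measured members and higher in none (median -0.76). Hsd17b7 gave 8.63, 11.38 and 11.32, 6.56-fold lower, while Hmgcs1 gave 13.35, 13.61 and 13.42.

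Translation and ribosome biogenesis genes were higher in 16 of 27 measured members and lower in none, with a median of 1.30. Rrp9 gave 10.60, 8.27 and 8.29, 5.02-fold higher, Nop56, a core protein of box C/D particles, gave 11.63, 9.35 and 9.43, 4.73-fold, and Nhp2 of the box H/ACA particles gave 13.12, 11.06 and 10.99, 4.25-fold. RNA-binding and splicing regulators were higher in 10 of 23 and lower in 3, with a median of 0.87. Rbm47 gave 9.82, 6.31 and 5.87, 13.2-fold higher. The lower members included Mbnl1, a muscleblind protein that represses stem-cell splice forms, with 7.68, 11.89 and 12.11 (19.9-fold), and Mbnl2, with 10.56, 12.18 and 12.39 (3.30-fold).

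Immune lists other than MHC class I had more lower members than all genes on average, and macrophage markers were lower beside them. All 6 macrophage markers on the array were detected on both fibroblast arrays and none on ESC, and their summed signal was 168 on ESC against 1770 and 1700. Of these, 3 were lower in ESC: Lyz2 with 4.74, 10.04 and 10.04 (at least 24.4-fold), which shares sequence with Lyz1, Fcer1g with 4.70, 8.59 and 8.36 (at least 8.26-fold) and Adgre1 with 4.43, 7.36 and 7.37 (at least 3.83-fold). On the bone marrow cells at 0 h, Lyz2 stood at 14.73. The part of such cells in the immune lists was not tested.

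Interferon response genes were lower in 12 of 24 measured members and higher in none, with a median of -1.15. Ifi27 gave 6.55, 11.11 and 11.10, 23.5-fold lower. Ifit3 gave 4.80, 9.84 and 9.67, at least 20-fold, and Isg15 gave 5.41, 9.47 and 9.40, at least 16.1-fold. Irf1 (10.09, 10.13 and 9.89) and Ifitm2 (12.98, 13.44 and 13.36) were not called. Cytokine, chemokine and NF-kB genes were lower in 12 of 23 and higher in 2, with a median of -1.31. Vcam1 gave 4.58, 11.30 and 11.44, at least 61.4-fold lower, and Ccl7 gave 4.59, 11.05 and 10.98, at least 48.1-fold. The adhesion molecule Icam1 went the other way, with 10.46, 8.48 and 8.37, 4.09-fold higher. Of 16 MHC class I and antigen processing genes, 2 were lower and none higher (median -0.06). Both shares were below those of all genes, 19.9% and 19.8%. B2m, the light chain, gave 10.19, 13.25 and 13.20, 8.17-fold lower, and the peptide transporter Tap2 gave 4.88, 7.76 and 7.55, at least 4.67-fold. In the lysosome and secretory pathway 14 of 26 were lower and none higher (median -1.13), led by the calcium-binding Rcn3 with 5.48, 9.86 and 9.70 (19.7-fold), the COPII subunit Sec24d with 5.15, 9.10 and 9.47 (at least 14.5-fold) and Lamp2 with 10.18, 13.12 and 13.27 (8.10-fold).

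Imprinted genes, expressed from the allele of 1 parent, were lower in 12 of 21 measured members and higher in 4, with a median of -1.62. Dlk1, a Notch ligand relative, gave 6.98, 12.62 and 12.69, 51.1-fold lower, and Ndn gave 8.73, 12.51 and 12.51, 13.8-fold. Phlda2, a growth restrictor of placenta, gave 10.20, 4.59 and 4.55, at least 27.3-fold higher, and Snrpn gave 11.72, 10.34 and 10.30, 2.64-fold. The X inactivation RNA Xist was below detection on ESC and gave 4.69, 7.46 and 8.01, at least 4.94-fold lower. The Y-linked genes Eif2s3y (9.29, 8.70 and 8.71) and Kdm5d (5.69, 6.31 and 6.13) were detected on all 3 arrays, though both have X-linked relatives. Of 296 tested X-linked genes, 57 (19.3%) were higher and 75 (25.3%) lower, where all tested genes gave 19.8% and 19.9%. Chromosomes 1, 3 and 13 each had 24.4% lower, so the share on X was close to that of some autosomes.

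Markers of other lineages were in part detected on ESC. Tfap2c, a factor of trophectoderm and germ cells, gave 11.18, 4.72 and 4.79, at least 53.9-fold higher. Krt7 gave 8.11, 5.70 and 5.80, 5.13-fold, and Sox17, of primitive endoderm, gave 7.12, 4.37 and 4.47, at least 3.22-fold. Dab2, another primitive endoderm marker, gave 9.85, 11 and 11.02, 2.23-fold lower. Pecam1, an endothelial gene that mouse stem cells also carry, gave 8.58, 4.34 and 4.48, at least 8.91-fold, while the endothelial Emcn gave 4.51, 6.63 and 6.61, at least 2.29-fold lower. The muscle genes Tnnt1 (9.09, 5.09 and 5.14, at least 12.7-fold) and Actc1 (7.85, 5.20 and 4.85, at least 5.35-fold) were higher as well. Of 6 trophectoderm and 6 primitive endoderm markers on the array, ESC detected 3 and 5. Among these Cdx2, Gata4 and Gata6 were not called. None of the 5 mesendoderm and 3 erythroid markers on the array was detected on ESC. Of these only Gsc was detected on the fibroblasts, so that absence says little. Their part in the lists above was not tested.

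The other arrays of the series describe where else these genes were detected. The 446 and 507 genes below were chosen by detection on ESC and the wild-type MEF arrays. Their shares on TO_MEF_0, also fibroblasts, follow in part from that choice and are given as a description. Of all probes, 39.8% were detected on TO_MEF_0, 41.3% on Ctrl_NSC_0 and 41.7% on TO_BMC_0. Of the genes higher in ESC, 446 were below detection on both wild-type MEF arrays. TO_MEF_0 detected 41 of them (9.19%), Ctrl_NSC_0 105 (23.5%) and TO_BMC_0 115 (25.8%). Sox2 is an example, with 10.01 on Ctrl_NSC_0. Gdf3 gave 9.87 on TO_BMC_0 and 4.58 on untreated wild-type MEF. Pou5f1 gave 8.44 on TO_MEF_0, the line with the Oct4 transgene, where it was detected at 0 h. None of the 14 other arrays detected 198 of the 446, among them Dppa4, Fbxo15, Ooep, Tex19.1, Nanog, Sall4, Zscan4c, Utf1, Cldn4 and Tfap2c. TO_MEF arrays were dimmer than the rest, with mean raw intensities of 382 to 437 against 597 on ESC.

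Of the genes lower in ESC, 507 were below detection there and, by the call rule, detected on both wild-type MEF arrays. TO_MEF_0 detected 475 of these (93.7%), TO_BMC_0 288 (56.8%) and Ctrl_NSC_0 276 (54.4%). Ptn, the leading gene, gave 14.11 on Ctrl_NSC_0 and 5.07 on TO_BMC_0, and Nfix gave 12.61 on Ctrl_NSC_0. Detection on TO_MEF_0 together with none of the uninduced NSC and BMC arrays held for 91 genes. Pdgfra gave 10.66 on Ctrl_NSC_0 and 5.66 on TO_NSC_0, so the NSC arrays differ between themselves for this gene.

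The genes higher in ESC that no other uninduced array detected were followed on the induced arrays up to 24 h. Of 233 genes higher in ESC that no uninduced array other than ESC detected, 6, 10 and 9 were detected on TO_MEF at 6, 12 and 24 h, 5, 3 and 8 on TO_NSC, and 3, 8 and 9 on TO_BMC. Since they were chosen as undetected at 0 h, these counts can only be 0 or more and are given as a description. The shares ran from 1.29% to 4.29%. How many other genes undetected at 0 h became detected was not counted, so the shares have no background. In TO_MEF at 24 h, the median change of the genes higher in ESC fell by 0.17 on the log2 scale and that of all tested genes was 0.00. Among the genes higher in ESC 6.31% stood at least 2-fold above TO_MEF_0 and 7.34% below it, where all tested genes gave 7.20% and 7.60%. Among the genes lower in ESC, 9.39% stood above and 14.3% below. In TO_NSC at 24 h, 7.39% of the genes higher in ESC stood above TO_NSC_0 and 27.1% below, against 9.94% and 11.4% of all tested genes. Of the genes lower in ESC, 16.2% stood above TO_NSC_0 and 9.17% below. In TO_BMC at 24 h, 0.749% of the higher genes stood above TO_BMC_0 and 1.5% below, the lower genes gave 2.41% and 1.00%, and all tested genes 0.956% each way. Each of these values compares 1 array with 1 other.

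**Figure D5:**
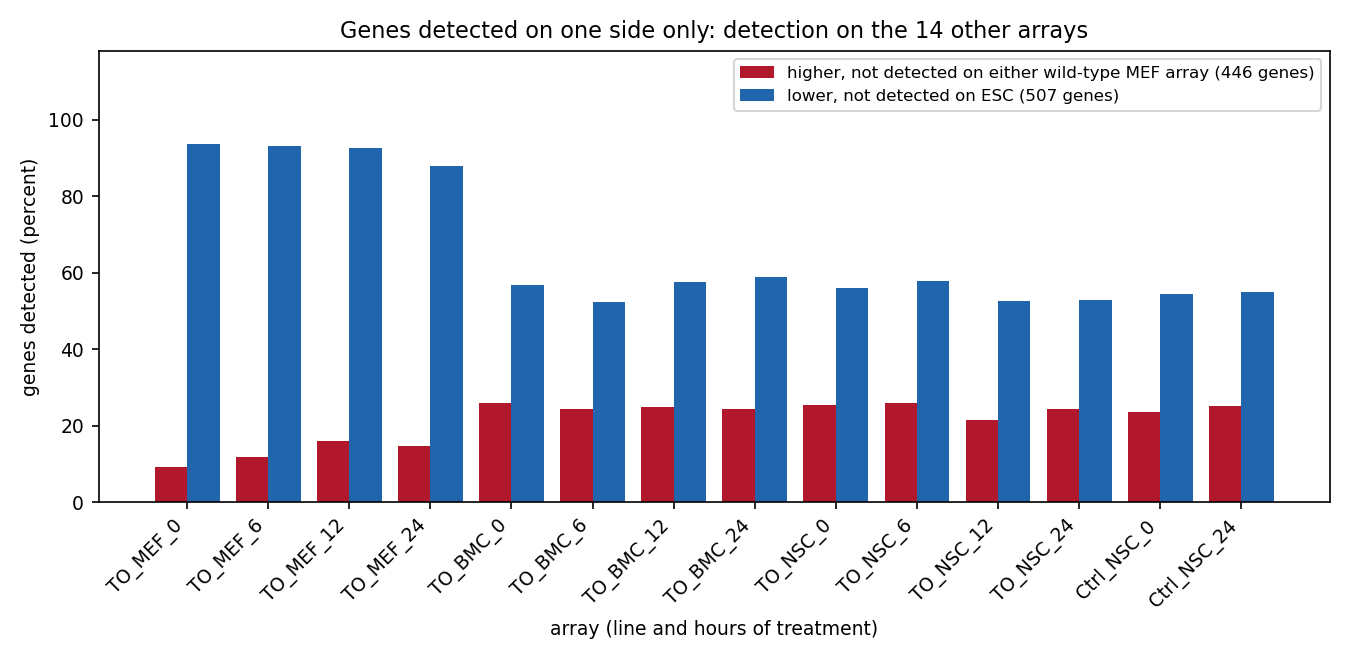
Share of genes detected (y axis, percent, detection p under 0.01) on each of the 14 other arrays (x axis, line and hours of treatment), for the 446 genes higher in ESC and undetected on both wild-type MEF arrays (red) and the 507 lower genes undetected on ESC (blue). The blue bars reach 93.7% on TO_MEF_0 and 56.8% on TO_BMC_0, and the red bars 9.19% and 25.8%.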

How the data were processed

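RNA of the 3 samples was hybridised as biotin-labelled cRNA to Illumina BeadArrays, 1 array each. The authors deposited a linear intensity per probe and array and a detection p-value from negative control beads, neither normalized, per the file headers. The authors' log2 values are a deposited series matrix and served as an alternative. The tools named in the submitters' processing notes are lumi, RMA and BeadStudio 3.2; their order and settings are not given in the sources used here.

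Intensities were corrected with normexp (offset 16, negative controls inferred from detection p) and quantile-normalized over all 17 arrays with limma 3.58.1 in R 4.3.3, then log2-transformed. Of 25697 probes, 23978 had 1 symbol, 1719 had none and 0 had several; 12895 were detected on any of the 3 arrays. A gene was represented by its detected probe of highest mean, and of 1018 called genes with several probes, 529 had every probe called the same way and 5 had a probe called the other way. The number of arrays limits the precision, and labels do not say whether cultures were separate. The call rule and the limma fit were run on simulated data. There the call rule took every value as detected, so the floor for undetected values was not tested.

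A naming rule listed up to 6 called members per list and direction by size of the smaller difference, and up to 4 uncalled ones by level. It added members against a list's majority, the 15 leading genes each way and all measured cell type markers. The text prints only part of that list. The genes and the 39 lists were chosen with earlier results of these data known. Alternatives are given in the closing section.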

Additional observations from a re-analysis of the deposited data

How the results depend on the processing

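No paired analysis was possible because each condition has 1 array and the groups share only replicate number 1. No called gene on the naming rule's list reversed direction in the 8 settings rerun per gene. Dropping the floor or a fibroblast array could not reverse a call. Med1, Nme7, Pkig, Rmdn3 and Snapc3, singled out after their values were seen, each had a probe called against the gene's direction. The 1766 higher and 1779 lower genes became 574 and 791 at a 4-fold threshold, by construction. Across the other planned settings they ranged from 1197 and 1243 (no background correction) to 2588 and 2499 (1.5-fold). Leaving out Ctrl_MEF_0 gave 1938 and 1917, and leaving out Ctrl_MEF_24 gave 1890 and 1916. By construction, leaving out an array cannot lower the counts. Requiring the difference against TO_MEF_0 too gave 1343 and 1410, and that requirement cannot raise them. The 8 genes that differed at least 2-fold between the wild-type MEF arrays became 39 with the authors' log2 values, 1 without background correction, 3 with an offset of 50, 163 at 1.5-fold and 0 at 4-fold (no test); the cause was not tested. A limma fit of all 17 arrays assumes that ESC, with 1 array, varies like the other lines. Its spread comes from arrays of a line at different hours or treatment, so it does not measure variation between cultures. Its median difference over the tested genes was 0.01 on the log2 scale, and its calls are not counted here.

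Of the 292 called genes on the naming rule's list, all kept their call with the authors' values, median scaling and quantile normalization over the 3 arrays. They also kept it with no floor and with either fibroblast array left out. The call rule fixes that outcome in advance, so those settings are no check. Without background correction 265 kept it, and with an offset of 50, 283 did. Without background correction the lower members went from 3 to 1 among Polycomb genes, also with an offset of 50, and from 3 to 1 among chromatin remodellers. The higher imprinted genes went from 4 to 2, and the higher germ line genes from 12 to 7. Mitochondrial genes went from 3 to 5 higher with the authors' values. Leaving out Ctrl_MEF_24 put 1 cholesterol gene higher, from 0. Low signal is the limit: folds against an undetected side are bounds for 522 higher and 507 lower genes.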
